A study of Homo sapiens with 4 samples.

Results

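The 10 genes described here encode the enzymes that break down haem, the proteins that store and import iron, and the regulators that switch such genes on and off: HMOX1, HMOX2, BLVRA, BLVRB, FTL, FTH1, TFRC, BACH1, NFE2L2 and KEAP1. They were chosen by symbol from a deposited table of 57820 genes. The 10 genes were chosen with earlier results of these data known, the fall of HMOX1 among them, so their p-values are no independent support. Among rows sharing a symbol, the row with the largest summed count over the libraries would have been taken. Each symbol had 1 row, so that step decided nothing, and all 10 genes passed the filter on low counts. The RNA came from U87, a human glioma cell line in long use. Cells of the shGlud1 group expressed a hairpin aimed at GLUD1, and those of the shNT group a control hairpin. There were 2 libraries in each group, and every library came from cells grown with 10% bovine calf serum and kept for 6 h in low glucose. Nothing in the labels says that the libraries of a group were separate cultures, so the p-values cover no more than the spread among them, and that spread may be technical.

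As background, haem oxygenase opens the haem ring and releases iron, carbon monoxide and biliverdin, which biliverdin reductase turns into bilirubin. The freed iron is held in ferritin, a shell of heavy and light chains, and iron enters cells through the transferrin receptor. The transcription factor NRF2, made from NFE2L2, drives HMOX1, the ferritin genes and many detoxification genes with small MAF partners. KEAP1 marks NRF2 for destruction, and BACH1 competes with it at the same DNA element until haem displaces BACH1.

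The libraries held 16546849 to 18537314 expected counts, and 14616 genes were tested. Levels are given in CPM, counts per 1000000 counts scaled by TMM factors, and a gene was called changed at an adjusted p under 0.05 in edgeR's quasi-likelihood test over all genes tested. GLUD1, the mitochondrial glutamate dehydrogenase gene and the target of the hairpin, stood at 34.0 and 44.5 CPM in the shGlud1 libraries, against 78.1 and 76.5 CPM in the shNT libraries (log2 fold change -0.98, SE 0.13, adjusted p = 1.26e-12). GLUD2, its near-identical copy, had at most 7.90 expected counts in any library and was too low to test. The summed level of 6 mesenchymal glioma markers, among them VIM and CD44, was 6570 and 7770 per 1000000 counts in the shGlud1 libraries, against 3010 and 2900 in the shNT libraries, and its part in the results below was not tested. Of the 7 glial markers SOX2 and AQP4 were at 0 in every library, and GFAP had 2 to 6 counts. SLC1A3, also on that list, had 66 and 85 counts in the shGlud1 libraries, against 37 and 36 in the shNT libraries. The summed level of the 7 glial markers was 5.69 and 6.37 per 1000000 counts in shGlud1, against 4.29 and 3.53 in shNT. Red cell precursors also make much haem, and 5 of 9 erythroid markers, including ALAS2, were at 0 in every library, with a summed level of 0.0539 to 0.682. Macrophages, which recycle haem, have 7 markers listed, and of these CD68 made up nearly the whole sum, at 334 and 342 in the shGlud1 libraries and 329 and 301 in the shNT libraries, while PTPRC, the pan-leukocyte marker, had 0 or 1 count.

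In the shGlud1 libraries the inducible haem oxygenase transcript and both ferritin transcripts were lower, and the transcripts of the NRF2 and BACH1 regulators were higher. Of the 10 genes 6 fell and 4 rose, and in each of the 10 the groups did not overlap. The background was high: 61.0% of all genes passed, with 31.9% higher and 29.1% lower in shGlud1, and in 81.0% the groups did not overlap, so the count of called genes says little by itself. In bulk RNA, fewer cells of a kind and less RNA per cell cannot be told apart. HMOX1, FTL and FTH1 as lower, and NFE2L2 and BACH1 as higher, kept their call and direction in all 15 alternative fits, and the other 5 genes did not.

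**Figure D1:**
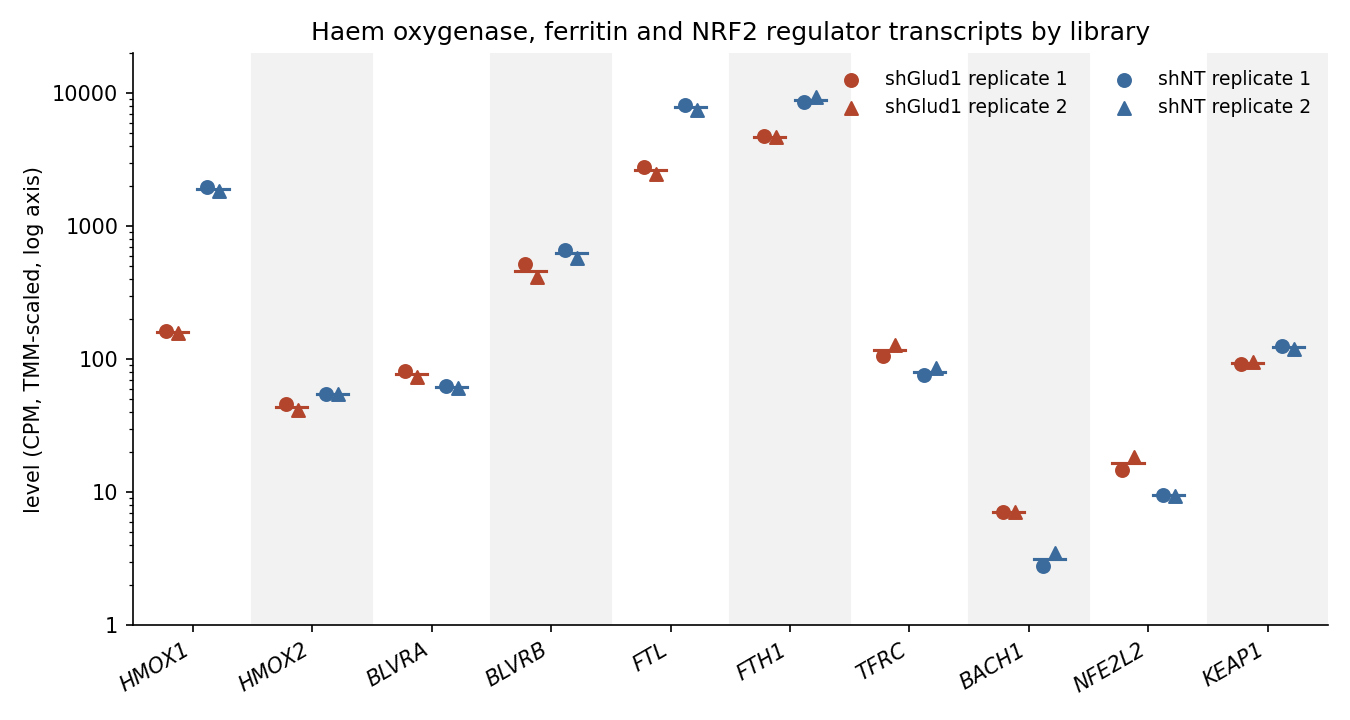
Level of each of the 10 genes in each library, in TMM-scaled CPM on a log axis, with shGlud1 left of shNT within each gene, circles for replicate 1, triangles for replicate 2 and a line at the mean. HMOX1 shows the widest gap, at 162 and 158 CPM in the shGlud1 libraries and 1968 and 1849 CPM in the shNT libraries.

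HMOX1, the stress-inducible haem oxygenase gene (ENSG00000100292, GRCh38 chromosome 22, 35380361 to 35394214), had 3241 and 3638 expected counts in the shGlud1 libraries, against 26873 and 28294 in the shNT libraries. On the CPM scale it stood at 160 ± 2.89 in shGlud1 and at 1909 ± 84.5 in shNT (SD, n = 2 each). Its replicates lay close together and the groups lay far apart. This is a log2 fold change of -3.58 (SE 0.17, adjusted p = 7.01e-92, edgeR), or 11.9-fold higher in shNT. Of the 9842 genes tested with a mean of at least 5 CPM, 17 had a more negative fold change. HMOX1 took 0.0186% and 0.0196% of all counts in the shGlud1 libraries, against 0.162% and 0.156% in the shNT libraries. Ranked by CPM it was gene 965 and gene 905 in the shGlud1 libraries, against gene 92 and gene 102 in the shNT libraries.

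HMOX2, the constitutive haem oxygenase gene, had 919 and 948 expected counts in the shGlud1 libraries, against 750 and 833 in the shNT libraries. After scaling this became 45.9 and 41.1 CPM in shGlud1, against 54.9 and 54.4 CPM in shNT (log2 fold change -0.33, SE 0.13, adjusted p = 0.0231, edgeR). The counts themselves were thus higher in shGlud1 while the scaled levels were lower. With libraries scaled by total counts the value was 0.19 (adjusted p = 0.215), where the median of all genes was 0.57 (0.06 with TMM factors), and relative to that median HMOX2 was at -0.39. It was at 0.072 (adjusted p = 0.545) with trends on transcript length and GC content removed, and it lost its call without shNT replicate 1 (adjusted p = 0.146), without shNT replicate 2 (0.126) and without shGlud1 replicate 2 (0.126). NMRAL1, whose span overlaps that of HMOX2 on the opposite strand, had 741 and 642 counts in shGlud1 and 661 and 643 in shNT. The counts of both genes are whole in every library, and any reads that both cover could not be told apart by strand.

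A ratio of 2 genes within a library needs no scaling between libraries. Per base of transcript, the ratio of HMOX1 to HMOX2 was 4.16 and 4.52 in the shGlud1 libraries, against 42.2 and 40.0 in the shNT libraries. The inducible transcript was thus the more abundant of the pair in both groups, and its lead over HMOX2 was far smaller in shGlud1. With 2 libraries against 2, the smallest two-sided p of an exact permutation test is 0.333, so no ratio was tested.

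The transcripts of the biliverdin reductases, the enzymes downstream of haem oxygenase, moved little. BLVRA, which acts on the main biliverdin isomer, stood at 81.2 and 73.6 CPM in shGlud1, against 63.1 and 61.2 CPM in shNT (log2 fold change 0.32, SE 0.13, adjusted p = 0.027, edgeR). BLVRB, also known as flavin reductase, stood at 515 and 413 CPM in shGlud1, against 667 and 580 CPM in shNT (-0.43, SE 0.15, adjusted p = 0.00768). Neither call was firm. BLVRA lost its call in 5 of 15 alternatives, among them the fits without shNT replicate 1 (adjusted p = 0.143), without shNT replicate 2 (0.212) and without shGlud1 replicate 1 (0.125), and reached 0.89 with the transcript length trend removed. BLVRB changed sign under total counts (0.087, adjusted p = 0.504) and with that trend removed (0.069, adjusted p = 0.655), and was called as higher once length and GC trends were both removed (0.25, adjusted p = 0.0275). It also lost its call without shNT replicate 1 (adjusted p = 0.264) and without shNT replicate 2 (0.0545). Per base, BLVRA was at 0.189 and 0.214 of BLVRB in the shGlud1 libraries, against 0.113 and 0.126 in the shNT libraries, so the balance between the reductase transcripts differed between the groups without overlap.

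**Figure D2:**
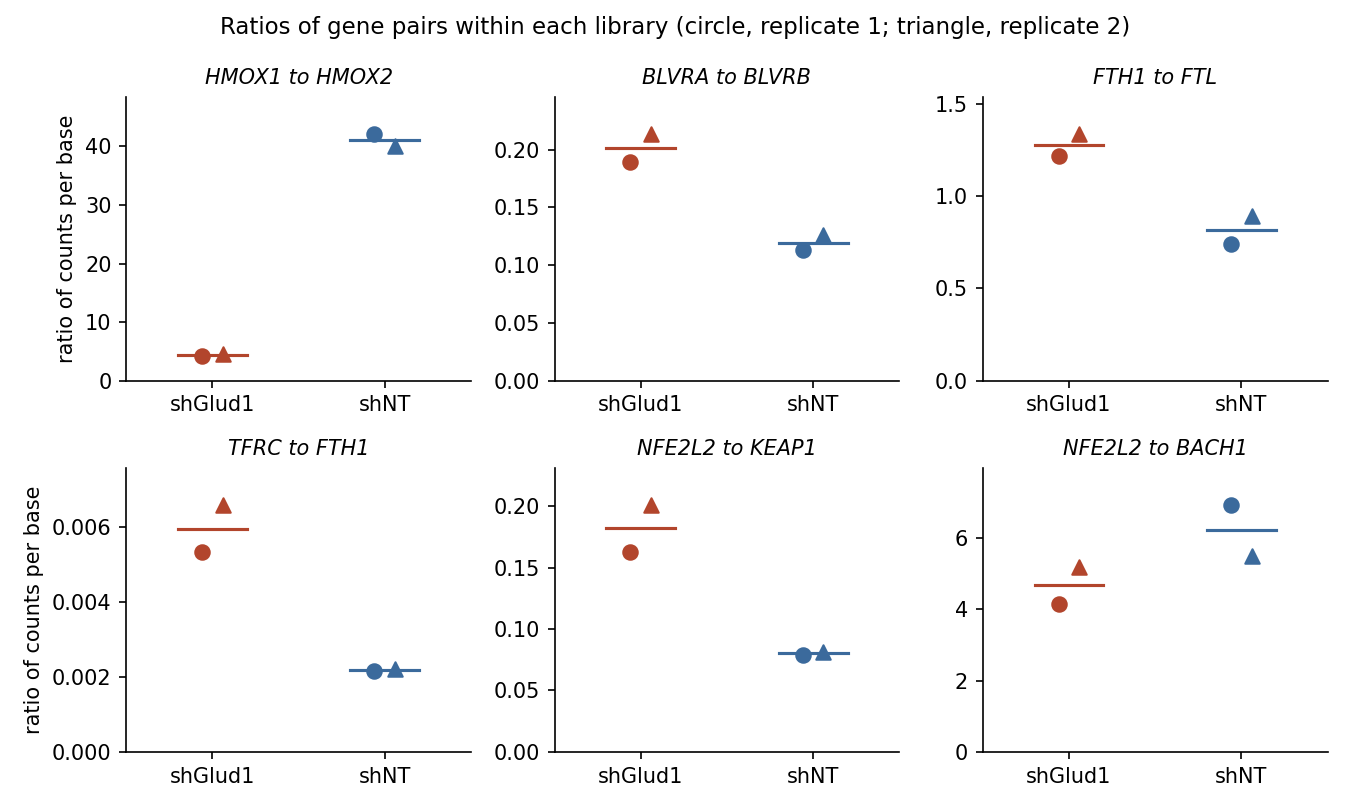
Ratio of counts per base of longest annotated transcript for 6 gene pairs within each library, with shGlud1 left of shNT, a line at the mean and each vertical axis starting at 0. The ratio of HMOX1 to HMOX2 is 4.16 and 4.52 in the shGlud1 libraries and 42.2 and 40.0 in the shNT libraries, while that of NFE2L2 to BACH1 nearly touches between the groups.

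Ferritin transcripts were among the most abundant in these cells and were lower in shGlud1, the light chain more than the heavy chain. FTL, the light chain gene (GRCh38 chromosome 19, 48965301 to 48966878), stood at 2774 and 2481 CPM in the shGlud1 libraries, against 8199 and 7440 CPM in the shNT libraries (log2 fold change -1.57, SE 0.18, adjusted p = 6.21e-17, edgeR). FTH1, the heavy chain gene whose product oxidises iron for storage (GRCh38 chromosome 11, 61959718 to 61967660), stood at 4731 and 4666 CPM in shGlud1, against 8502 and 9291 CPM in shNT (-0.92, SE 0.18, adjusted p = 1.65e-06). In both genes the shGlud1 libraries lay below both shNT libraries. Together the pair took 0.876% ± 0.0181 of all counts in shGlud1 and 1.40% ± 0.0248 in shNT (SD, n = 2 each).

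The size of these falls depended on the scaling, and their direction did not. FTL was at -0.92 with the length trend removed, at -0.79 with both trends removed and at -1.06 under total counts. FTH1 was at -0.36, -0.44 and -0.40 in the same fits. Both transcripts are short, at 878 and 1229 bases for the longest annotated form. Per base of these longest forms, the ratio of heavy to light chain was 1.22 and 1.34 in the shGlud1 libraries, against 0.741 and 0.892 in the shNT libraries. In counts, without division by length, it was 1.71 and 1.88 in shGlud1, against 1.04 and 1.25 in shNT. The ratio was thus higher in shGlud1 on both scales. The order of the ferritin chains differed between the groups only per base, which depends on the lengths used.

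Ferritin genes have many processed pseudogenes, and the deposited counts of FTH1 are not whole in 3 of 4 libraries. The 25 FTH1 pseudogene rows held 0.636% and 0.630% of the counts of FTH1 and its pseudogenes in shGlud1, against 0.622% and 0.676% in shNT. The 16 FTL pseudogene rows held 0.239% and 0.204% in shGlud1, against 0.174% in each shNT library. Adding those counts to the parent genes left the fold changes at -0.92 for FTH1 and -1.57 for FTL. BEST1, which overlaps FTH1 on the opposite strand, had 56 and 68.6 counts in shGlud1, against 154 and 162 in shNT, a small amount beside the counts of FTH1.

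TFRC, the transferrin receptor gene, stood at 105 and 128 CPM in the shGlud1 libraries, against 76.0 and 85.2 CPM in the shNT libraries (log2 fold change 0.53, SE 0.13, adjusted p = 0.00012, edgeR). Its longest annotated transcript has 5111 bases. The call was lost with the length trend removed (0.16, adjusted p = 0.271), with both trends removed (-0.028, adjusted p = 0.807) and without shNT replicate 1 (0.45, adjusted p = 0.052). Per base, TFRC was at 0.00533 and 0.0066 of FTH1 in shGlud1, against 0.00215 and 0.00221 in shNT.

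The storage and import transcripts carry the same regulatory hairpin, the iron-responsive element, to which the iron regulatory proteins bind when iron is scarce. In ferritin transcripts it sits before the coding sequence and limits translation, and in TFRC it sits after the coding sequence and protects the RNA. The longest protein-coding transcript of each gene in GENCODE 29 (GRCh38) was searched for this element. The pattern was a C, 5 bases, CAGTG, a base other than G, and 5 bases that pair with the first 5. G-T pairs were allowed, and the FTL and FTH1 elements match only because of that. The pattern was found in 3 of the 10 genes and in 0.96% of 19684 genes. The FTL element lies at bases 41 to 57 and the FTH1 element at bases 65 to 81 of their transcripts, both in the 5′ UTR, and they differ at 1 of 17 bases. The 4 TFRC matches begin at bases 3394, 3798, 3863 and 3910, all in the 3′ UTR. They are shown as DNA letters, 5′ to 3′, with the loop of 6 bases in capitals.
FTL: cttcaaCAGTGTttgga
FTH1: cttcaaCAGTGCttgga
TFRC at 3394: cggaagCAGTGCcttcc
TFRC at 3798: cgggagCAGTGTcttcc
TFRC at 3863: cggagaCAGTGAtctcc
TFRC at 3910: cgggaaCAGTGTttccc
The match is a description of the sequence, and translation was not measured here.

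NFE2L2, the gene of NRF2 (GRCh38 chromosome 2, 177227595 to 177392697), stood at 14.6 and 18.4 CPM in the shGlud1 libraries, against 9.52 and 9.41 CPM in the shNT libraries (log2 fold change 0.80, SE 0.19, adjusted p = 5.71e-05, edgeR). The transcript was thus higher in shGlud1 while HMOX1, a gene that NRF2 is known to drive, was lower. The counts behind it were modest, at 292.19 and 422.91 in shGlud1 against 130.24 and 143.84 in shNT, and they are not whole. AC074286 overlaps NFE2L2 on the same strand. It had 12.81 and 10.09 counts in shGlud1 against 2.76 and 3.16 in shNT, which are not whole either. The span of AGPS, introns included, overlaps that of NFE2L2 on the opposite strand. AGPS had whole counts in every library, at 364 and 513 in shGlud1 against 256 and 327 in shNT. Any reads that both NFE2L2 and AGPS cover could not be told apart by strand.

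BACH1, the haem-sensing repressor of HMOX1 (GRCh38 chromosome 21, 29194071 to 29630751), was the least abundant of the 10, with 142 and 165 counts in the shGlud1 libraries, against 38 and 53 in the shNT libraries. This gave 7.10 and 7.16 CPM in shGlud1, against 2.78 and 3.46 CPM in shNT (log2 fold change 1.18, SE 0.26, adjusted p = 1.56e-05, edgeR). It was the largest rise among the 10 genes. With the length trend removed the rise was 0.73 (adjusted p = 0.00629), and over all alternatives it ran from 0.70 to 1.70. Genes with a rise or fall larger than that of BACH1 made up 20.7% of those tested, against 0.643% for HMOX1.

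KEAP1, the adaptor that hands NRF2 to the CUL3 ubiquitin ligase, stood at 92.5 and 94.6 CPM in shGlud1, against 125.5 and 119 CPM in shNT (log2 fold change -0.39, SE 0.13, adjusted p = 0.00569, edgeR). It lost its call without shNT replicate 1 (adjusted p = 0.122), without shNT replicate 2 (0.0558) and with both trends removed (-0.15, adjusted p = 0.191). Under total counts it stood at 0.13 (adjusted p = 0.301), and at -0.44 relative to the median of all genes. Per base, NFE2L2 was at 0.163 and 0.201 of KEAP1 in the shGlud1 libraries, against 0.0787 and 0.0816 in the shNT libraries. The ratio of NFE2L2 to BACH1 was 4.16 and 5.18 in shGlud1, against 6.93 and 5.49 in shNT, groups that came close to overlapping.

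**Figure D3:**
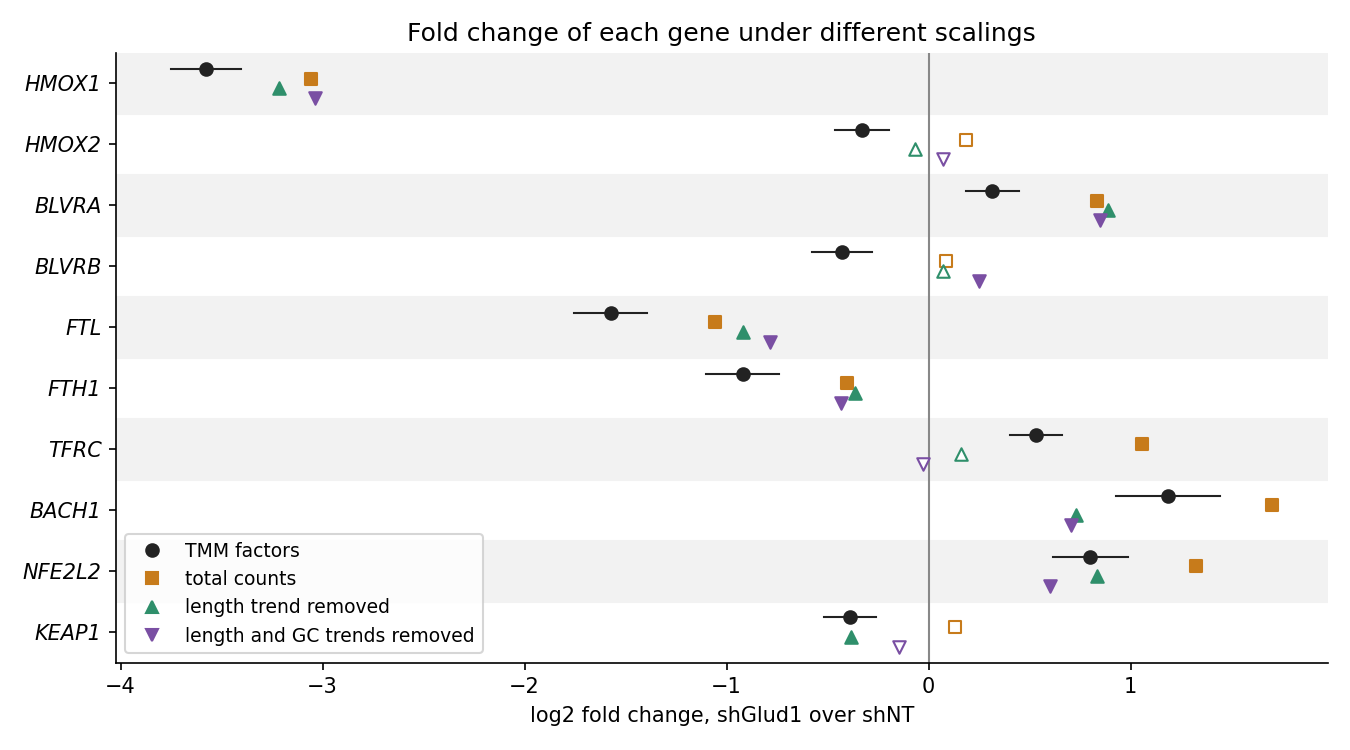
Log2 fold change of each gene, shGlud1 over shNT, with TMM factors (circle, with a bar of 1 SE on each side), total counts (square), the transcript length trend removed (upward triangle) and the length and GC trends removed (downward triangle); filled symbols have an adjusted p under 0.05. HMOX1, FTL and FTH1 stay left of 0 and BLVRA, BACH1 and NFE2L2 right of it in all 4 fits, whereas HMOX2, BLVRB, TFRC and KEAP1 have open symbols in at least 1 fit.

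Compared per kilobase of longest annotated transcript, the levels spanned a wide range in both groups. In shGlud1 the order was FTH1 at 3823 ± 37.7 CPM per kb, FTL at 2993 ± 236, BLVRB at 333 ± 51.7, HMOX1 at 87.8 ± 1.59, BLVRA at 66.6 ± 4.63 and KEAP1 at 31.7 ± 0.493 (SD, n = 2 each). TFRC at 22.8 ± 3.21 and HMOX2 at 20.3 ± 1.58 CPM per kb followed and could not be told apart, and NFE2L2 at 5.78 ± 0.933 and BACH1 at 1.24 ± 0.00786 came last. In shNT the order was FTL at 8906 ± 611 CPM per kb, FTH1 at 7239 ± 453, HMOX1 at 1048 ± 46.4, BLVRB at 448 ± 44.0 and BLVRA at 53.5 ± 1.20. KEAP1 at 41.4 ± 1.49, HMOX2 at 25.5 ± 0.165, TFRC at 15.8 ± 1.27, NFE2L2 at 3.32 ± 0.0278 and BACH1 at 0.541 ± 0.0834 CPM per kb came after. HMOX1 thus stood above BLVRB in shNT and below it in shGlud1, and the other neighbours in each order did not overlap.

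The wider pathways around these genes were described with 6 gene lists from general knowledge, which hold 118 genes, 102 of them tested. Of these, 32 rose and 44 fell, or 74.5% called. Among all genes tested 61.0% were called, 31.9% higher and 29.1% lower, so the counts of each list say little by themselves. Among 28 tested NRF2 target genes there were 17 that fell and 2 that rose (67.9% called). Their median log2 fold change was -0.53, against 0.06 for all genes. NQO1, a quinone reductase, fell to 396 ± 47.9 CPM in shGlud1, against 1280 ± 80.6 CPM in shNT (-1.69, SE 0.16, adjusted p = 1.75e-25, edgeR). EPHX1, an epoxide hydrolase, fell by 1.36 and OSGIN1, an oxidative stress-induced growth inhibitor, fell by 1.28, while the aldo-keto reductase AKR1C3 (1.10) and the isocitrate dehydrogenase IDH1 (0.34) rose. IDH1 lost its call in 4 alternatives, among them the fits without shNT replicate 1 and without shGlud1 replicate 2. TXNRD1, a thioredoxin reductase gene and textbook NRF2 target, did not pass the test (0.28, adjusted p = 0.0541, edgeR). It was called higher in 4 of the alternatives, among them the fit without shGlud1 replicate 1 (0.42), and stood at -0.22 with both trends removed. When scaled by total counts, 10 of the 28 were called lower and 10 higher, and their median was -0.01, where that of all genes was 0.57.

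The antioxidant response element, where NRF2, BACH1 and small MAF proteins bind, has the core TGACNNNGC. It was searched on both strands in windows of 250 bases before an annotated start, from RefSeq (GRCh38.p14), where a gene may have several starts. Windows were matched for 8 of the 10 genes and not for HMOX1 and FTH1. Among the 13 windows of these 8 genes 1 held a match, against 10.9% of all 35116 windows. That window belongs to KEAP1, and it lies before the more downstream of its RefSeq starts, inside the gene as GENCODE 29 draws it. Of 22 NRF2 target genes with a window 6 had a match in any of theirs, against 13.2% of all 27305 genes. The window of NQO1, the NRF2 target that fell with the lowest p, held no match. Sequence farther than 250 bases before a start was not searched. A heat shock element, spelled GAA, any 2 bases, TTC, any 2 bases and GAA, was in 0 of the 13 windows and in 0.441% of all windows, on either strand. Below are both KEAP1 matches, which lie close together, and those of 4 NRF2 target genes that fell. Each is in the gene's own direction with 10 bases on each side and the core in capitals, and a core that ends in GTCA lies on the opposite strand.
KEAP1, chr19:10502807-10502835, minus strand: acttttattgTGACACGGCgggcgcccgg
KEAP1, chr19:10502784-10502812, minus strand: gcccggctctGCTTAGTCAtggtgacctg
GCLM, chr1:93909446-93909474, minus strand: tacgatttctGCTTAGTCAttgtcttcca
EPHX1, chr1:225825266-225825294, plus strand: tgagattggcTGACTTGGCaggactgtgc
CBR1, chr21:36069855-36069883, plus strand: tgcgggttctGCAAAGTCAggctagctgg
PGD, chr1:10398853-10398881, plus strand: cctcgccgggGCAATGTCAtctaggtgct
Of these NRF2 targets GCLM fell by 0.38 (adjusted p = 0.0456, edgeR), CBR1, a carbonyl reductase gene, by 0.42 (0.0055), PGD, a pentose phosphate enzyme gene, by 0.59 (3.3e-05) and EPHX1 as above. Of these 4 genes only EPHX1 kept its call in all 15 alternatives. Under total counts GCLM was at 0.14, CBR1 at 0.10 and PGD at -0.068, none of them called. GCLM also lost its call without either shNT replicate, without shGlud1 replicate 1, with upper-quartile factors, with DESeq2 and with no filter, and CBR1 without shNT replicate 1. With the length trend removed CBR1 and PGD lost their calls. The remaining matches were in IDH1, which rose, and TXNRD1, which was not called. A match says nothing of whether a factor was bound.

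Among the partners and controllers of NRF2, 7 of 17 genes rose and 7 fell (82.4% called, against 61.0% of all genes), at a median of -0.18. MAFF, a small MAF partner, fell to 33.4 ± 0.0538 CPM in shGlud1, against 93.9 ± 10.4 CPM in shNT (log2 fold change -1.49, SE 0.13, adjusted p = 2.86e-27, edgeR). The other small MAF genes were lower too, MAFG by 0.50 (adjusted p = 0.00032) and MAFK by 0.49 (0.000441), calls that both lost under total counts (0.018 and 0.029). The ligase subunit gene RBX1 fell by 0.77 and DPP3, which binds KEAP1, by 0.71, a call that DPP3 lost under total counts. CUL3 (1.22), the scaffold of the KEAP1 ligase, rose, as did PALB2 (1.23), whose product also binds KEAP1, and the coactivator EP300 (1.61). The count that rose was 4 without shNT replicate 1 and 4 with the length trend removed, and under total counts 9 rose and 2 fell.

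Of 16 tested genes of iron uptake, storage and export 8 rose and 6 fell (87.5% called, against 61.0% of all genes), at a median of 0.30. ACO1, which encodes iron regulatory protein 1, rose to 81.8 ± 9.95 CPM in shGlud1, against 31.3 ± 2.17 CPM in shNT (log2 fold change 1.39, SE 0.14, adjusted p = 3.15e-23, edgeR). FBXL5 (0.94), which removes iron regulatory proteins when iron is plentiful, and NCOA4 (0.78), which delivers ferritin to lysosomes, rose as well. IREB2, which encodes iron regulatory protein 2, was also higher (0.80, adjusted p = 0.000691), but not past the test with the length trend removed (0.28, adjusted p = 0.238). STEAP1, a gene of the STEAP family, fell by 0.92, the mitochondrial iron importer SLC25A37 by 0.65 and the siderophore binder LCN2 by 1.06. LCN2 lost its call with the length trend removed, and SLC25A37 under total counts. SLC40A1, the iron exporter, had 0 counts in all 4 libraries. The count that rose was 4 without shNT replicate 1, 5 with DESeq2 and 3 with the length trend removed, and under total counts 10 rose and 2 fell.

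For haem synthesis 4 of 10 tested genes fell and 1 rose, at a median of -0.12. This is 50.0% called, below the 61.0% of all genes. TMEM14C, a transporter needed for haem synthesis in red cell precursors, fell to 145 ± 11.3 CPM in shGlud1, against 270.1 ± 16.8 CPM in shNT (log2 fold change -0.90, SE 0.14, adjusted p = 2.16e-10, edgeR). ALAS1, the first and rate-limiting enzyme outside red cells, fell by 0.75. The ALAS1 call was lost under total counts. CLPX (1.30), a mitochondrial unfoldase that acts on the ALAS enzyme, rose. The haem synthesis list had 5 genes that rose and 2 that fell under total counts, and 3 that rose without shGlud1 replicate 1.

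In the list of haem and bilirubin handling 6 of 13 genes rose and 2 fell, at a median of 0.24. This is 61.5% called, close to the 61.0% of all genes. POR, the reductase that supplies haem oxygenase with electrons, fell to 56.8 ± 2.47 CPM in shGlud1, against 165 ± 7.09 CPM in shNT (log2 fold change -1.54, SE 0.13, adjusted p = 2.01e-29, edgeR). HEBP2, a haem-binding protein gene, fell by 0.64, a call lost under total counts. The efflux pump ABCC1 (0.66) and the haemopexin receptor LRP1 (0.57) rose. ABCC1 and LRP1 lost their calls with the length trend removed, where LRP1 stood at -0.13, and LRP1 also without shNT replicate 2. The count that rose was 3 without either shNT replicate, without shGlud1 replicate 2, with DESeq2, with RLE factors or with the length trend removed, and under total counts 10 rose and 1 fell.

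**Figure D4:**
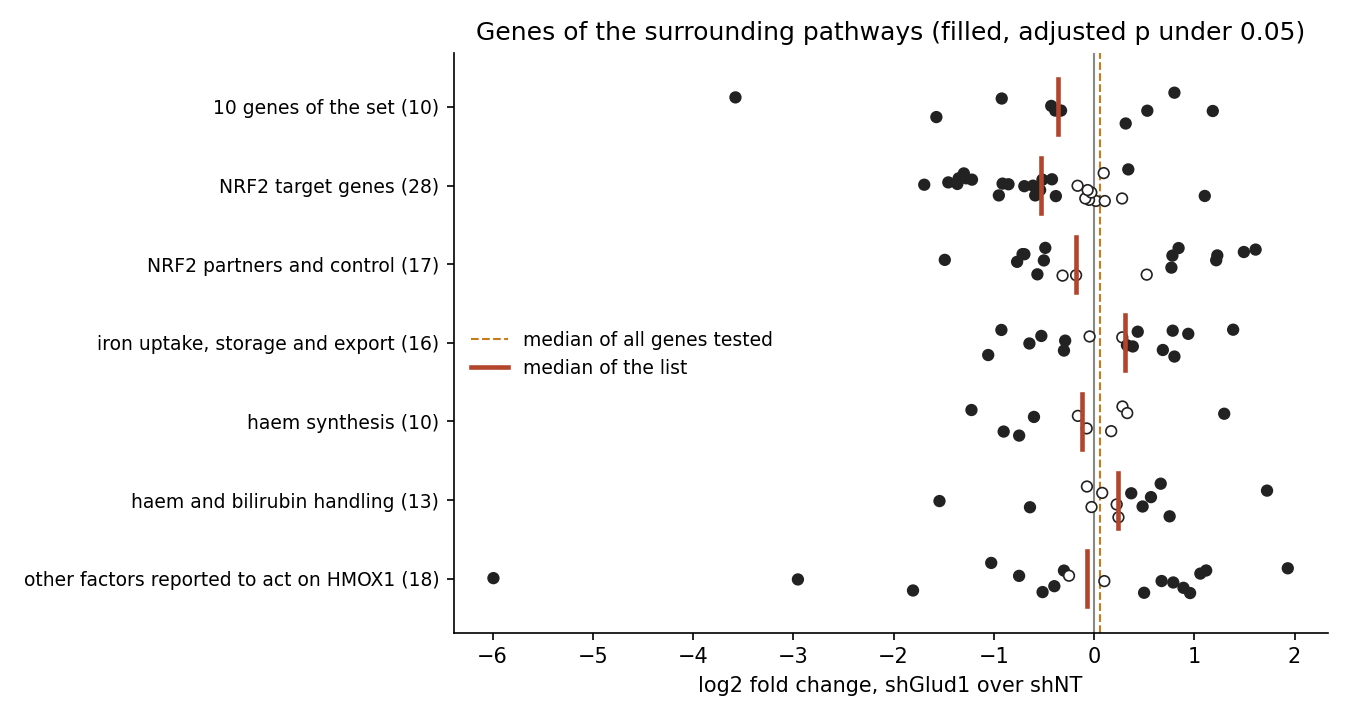
Log2 fold change, shGlud1 over shNT, of the 10 genes and of the tested genes of each surrounding list, with the number of genes in brackets, filled points for an adjusted p under 0.05, a red bar at the list's median and a dashed line at the median of all genes tested, 0.06. NRF2 target genes lie mostly to the left, at a median of -0.53, while the other lists spread to both sides.

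Factors other than NRF2 and BACH1 that are reported to act on HMOX1 were split, with 8 of 18 genes higher and 8 lower, at a median of -0.07. This is 88.9% called, against 61.0% of all genes. ATF4, the factor of the integrated stress response, fell to 288 ± 7.25 CPM in shGlud1, against 1009 ± 74.1 CPM in shNT (log2 fold change -1.81, SE 0.15, adjusted p = 8.84e-30, edgeR), and EGR1 (-2.95) and FOS (-5.99) were also among the falls with the lowest p. HIF1A, the hypoxia factor, rose to 117 ± 14.1 CPM in shGlud1, against 30.6 ± 1.24 CPM in shNT (1.93, SE 0.14, adjusted p = 4.06e-43, edgeR). The AP-1 genes FOSL1 (1.12) and FOSL2 (0.89) rose. EGR1 and FOS had no more than 32 counts in either shGlud1 library. Total-count scaling gave 10 higher and 4 lower of the 18.

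The genes outside the set whose pattern lay nearest to that of HMOX1 were sought by Euclidean distance between log2 CPM values, each gene centred over the 4 libraries, leaving out genes averaging under 5 CPM. The nearest was SLC3A2, the heavy chain of amino acid transporters, at a distance of 0.0442. SLC3A2 stood at 159 and 151 CPM in shGlud1, against 1857 and 1802 CPM in shNT. The next were ID2 (distance 0.168), an inhibitor of helix-loop-helix factors, the chemokine CCL26 (0.206), DDIT3 (0.217), which encodes CHOP, and GADD45B (0.248), a stress-induced gene. With 4 libraries in 2 groups this likeness rests almost wholly on the size of the difference between the groups, and it is a description without a test.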

How the data were processed

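The authors deposited 1 table of expected counts, estimated reads per gene that need not be whole (20.1% of values above 0 are not whole), with human Ensembl IDs and symbols. Per the labels' protocols, poly-A RNA from 1 µg of total RNA went into TruSeq V2 libraries, whose kit marks no strand, with 12 PCR cycles and paired reads of 150 nt. Without molecular identifiers, PCR copies are not independent molecules. The submitters' processing notes name Bowtie 0.12.2 and the mouse build mm8, although all 57820 rows are human. Which program counted, and on which annotation: not given in the sources used here.

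Counts were rounded and genes kept by filterByExpr (minimum count 10). In edgeR 4.0.16 (R 4.3.3), TMM factors were 1.15 and 1.25 for shGlud1 and 0.826 and 0.845 for shNT. The robust quasi-likelihood test had no replicate block, with Benjamini-Hochberg adjustment over all genes tested. SE is the absolute log2 fold change over the square root of F. The fits were tested on simulated data of 14616 genes, with 64 genes changed 1.5-fold, 70 changed 2-fold and 66 changed 4-fold. The main fit recovered 42.2% of the 1.5-fold changes, 70% of the 2-fold and 86.4% of the 4-fold. It called 2 unchanged genes. Far fewer genes changed there than the 61.0% called here, so these shares do not carry over to the real fit. A gene that was not called may still differ. Alternatives were DESeq2 1.42.0, limma-voom 3.58.1, RLE, upper-quartile and total-count scaling, other filters, the block, leaving out each library, removing lowess trends (span 0.3) on length, or length and GC, and adding ferritin pseudogene counts. Lengths, GC and positions came from GENCODE 29 by Ensembl ID (97.6% of tested genes had a length); figures used matplotlib 3.10.9.

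The 10 genes, the lists and the tests were chosen with earlier results of these data known, the fall of HMOX1 among them, so their p-values are no independent support. Named list genes are up to 3 called genes in each direction with the lowest p and a mean of at least 5 CPM; other list genes named, such as TXNRD1, GCLM, CBR1, PGD, MAFG, MAFK, IREB2 and SLC40A1, were chosen after their values were seen. The 5 genes nearest to HMOX1 were named too. Some genes that the rule names are not reported here. HJV and the marker PECAM1 matched no row.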

Additional observations from a re-analysis of the deposited data

How the results depend on the processing

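HMOX1, FTL, FTH1, BACH1 and NFE2L2 kept direction and call in all 15 alternatives, and HMOX1 ran from -3.63 to -3.03. Of the 10 genes, 4 rose and 6 fell. The number that fell was 3 under total counts and 3 with the length and GC trends removed. Leaving out 1 library at a time gave 2 to 4 that rose and 3 to 6 that fell, with the lowest counts without shNT replicate 1, and 3 fell also without shNT replicate 2. These fits have fewer samples, and a lone library is assumed to vary like the rest. Under total counts 7592 genes rose and 2000 fell among all genes tested, against 4662 and 4257, and of the list genes 54 rose and 21 fell, against 32 and 44. Leaving out 1 library gave 19 to 34 list genes that rose. Signs reversed for HMOX2 (0.19 under total counts and 0.072 with length and GC trends removed), BLVRB (0.087 under total counts, 0.069 with the length trend and 0.25 with the length and GC trends removed), TFRC (-0.028, length and GC), KEAP1 (0.13, total counts) and LRP1 (-0.13, length), and under total counts for GCLM (0.14), CBR1 (0.10), MAFG (0.018) and MAFK (0.029). TXNRD1, not called, was at -0.22 once both trends were removed. The total-count scaling raised the median of all genes to 0.57, and why the length steps moved these values was not tested. Same-numbered libraries did not deviate together (correlation 0.0409 over genes), and the replicate block left 4 of the 10 genes risen and 6 fallen, with 4745 risen and 4301 fallen of all genes tested and 32 and 45 of the list genes. Of 45 other genes picked by the naming rule or by hand, GLUD1 included, 30 kept direction and call in all alternatives. Among the 10 genes depth limits BACH1 most, at 38 counts in 1 library.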
